A study of Mus musculus with 58 samples.

Results

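The genes described here encode the proteins of the cytosolic ribosome. They were chosen by symbol, as every gene named Rpl or Rps followed by a number, together with the stalk genes Rplp0, Rplp1 and Rplp2 and the small-subunit gene Rpsa. Ribosomal protein kinases and pseudogenes were left out. The rule gave 83 genes out of 24123 in the tables, made up of 43 genes of the large subunit, 31 of the small subunit, 3 of the stalk and 6 paralogs. The rule uses names only.

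RNA was sequenced from liver and kidney of male B6C3F1/J mice, a first-generation hybrid strain, that were 5 to 6 weeks old when obtained. The protocol names this strain, while another label gives C57BL/6. Each mouse received 1 intragastric dose of tetrachloroethylene (PCE), trichloroethylene (TCE) or vehicle. The chlorinated solvents differ at a single position, where PCE carries chlorine and TCE carries hydrogen. PCE doses were 30, 100, 300 and 1000 mg/kg, and TCE doses were 24, 80, 240 and 800 mg/kg, which the protocol equates to about 0.22, 0.67, 2 and 6 mmol/kg of either solvent. Every group, dosed or not, received the vehicle at 5 mL/kg, which was saline with 5% Alkamuls EL-620, a surfactant made from castor oil. Each solvent had its own vehicle group. Neither the labels nor the design text gave how long after the dose tissue was taken. There were 58 libraries in 20 groups of 3, except that the liver group at 0.67 mmol/kg PCE and the kidney PCE vehicle group had 2.

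Each cytosolic ribosome is built from a large and a small subunit, and most of its proteins are present in a single copy, so their genes are usually transcribed and translated in step. Their mRNAs are short and abundant. Many begin with a C followed by an uninterrupted run of pyrimidines, the terminal oligopyrimidine (TOP) tract, through which the growth kinase mTORC1 and its partner Larp1 control translation. Free ribosomal proteins also act as sensors: Rpl5 and Rpl11, bound to a small ribosomal RNA, inhibit the ubiquitin ligase Mdm2 when ribosome assembly is disturbed. The liver exports large amounts of newly made plasma protein, and the kidney tubule makes large amounts of transport protein, so both tissues rely on many ribosomes.

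The start-site sequences below show how far the TOP tract is shared by the genes whose levels are described later. They come from RefSeq promoter windows of GRCm38.p6, which covered 63 of the 83 genes, and each line holds the 15 bases before and the 15 bases after the annotated start, on the gene's strand. Capitals mark the longest run of pyrimidines in the window. The first 5 belong to genes called in the liver PCE dose trend, calls that were lost with corrections for length and GC content, the sixth to Rpl5, called in kidney PCE but not without some single libraries, and the last 3 are genes with a long run near the start.
Rps2, chr17:24720048-24720077, plus strand: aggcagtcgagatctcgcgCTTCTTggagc
Rpl18, chr7:45718056-45718085, plus strand: tgcgtctcgcaggccgCTCTTTCCCCgccc
Rpl41, chr10:128549154-128549183, minus strand: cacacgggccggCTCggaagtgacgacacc
Rpsa, chr9:120127751-120127780, plus strand: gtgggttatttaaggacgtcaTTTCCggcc
Rps15, chr10:80292416-80292445, plus strand: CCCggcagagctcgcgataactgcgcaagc
Rpl5, chr5:107900513-107900542, plus strand: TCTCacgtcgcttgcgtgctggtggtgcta
Rps6, chr4:86857353-86857382, minus strand: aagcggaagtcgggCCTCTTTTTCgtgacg
Rplp2, chr7:141447636-141447665, plus strand: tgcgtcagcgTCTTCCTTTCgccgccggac
Rps18, chr17:33955651-33955680, minus strand: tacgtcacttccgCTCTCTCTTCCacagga
A run of 8 or more pyrimidines was present in 25 of the 63 windows (39.68%), against 11.85% of 27025 promoters of all genes. The median longest run was 6 bases in the ribosomal protein genes and 4 in all promoters. The letters CTTTC on the gene strand stood in 25.4% of the ribosomal protein start windows and in 3.99% of all start windows. In the 300-base windows, CCGGAAG on either strand, a motif of ETS factors, was found in 39.68% of ribosomal protein promoters and 9.14% of all promoters. TATAAA on either strand was found in 11.11% and 14.16%. Among the first 6, Rpl18 had a run of 10 beginning at the first bases of its transcript, while the windows of Rpl41 and Rps15 had none longer than 3. An annotated start can lie some bases away from the start used in these tissues, so these matches describe the letters only.

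Each liver library held between 30932385 and 125880542 counts, and each kidney library between 23247565 and 32420329. By the study's design the depth in liver was greater at both ends of the dose range, with 101634908 to 125880542 counts at 6 mmol/kg, 88048143 to 118064716 in vehicle libraries and 30932385 to 65112568 at the doses between. The 83 genes took 1.504 to 2.51% of the counts of a liver library and 2.36 to 3.23% of those of a kidney library. Markers matched the labelled tissues: 12 hepatocyte genes summed to 122393 to 169086 CPM (counts scaled to a common library size) in the vehicle and 6 mmol/kg liver libraries and to 4742 to 6616 CPM in those of kidney, while 12 proximal tubule genes summed to 530 to 1126 CPM in liver and 59912 to 89299 CPM in kidney. In bulk tissue, fewer cells of a type cannot be told apart from less RNA per cell. The labels do not say whether replicates came from separate animals, so the p-values below describe only the spread among these libraries.

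The level of members with several listed transcripts is uncertain. Counts were made per transcript, and reads shared by several transcripts went to an ambiguous line. The 71 genes listed with 1 transcript had a median of 514442 counts summed over the liver libraries and 303344 over those of kidney. The 12 genes listed with 2 or more had medians of 4698 and 2716.5, though Rpl32, with 2, was among the abundant genes, at 481 CPM per kb in liver and 699.6 in kidney, and Rpl26, with 1, was low. Rps24, Rps27 and Rpl10l were listed at 0 in every library, where 0 counts allow at most 0.0970 CPM in liver and 0.129 CPM in kidney; the first 2 encode core proteins of the ribosome. Low levels of such genes are therefore not read as low expression, and reads from processed copies of these genes elsewhere in the genome add further uncertainty. After a filter on low counts, 78 members were tested in liver and 79 in kidney. The untested ones were Rpl10l, Rpl39l, Rps24 and Rps27 in both tissues and Rpl3l in liver.

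In vehicle libraries the most abundant members per kilobase were much the same genes in both tissues, on a scale of CPM divided by transcript length. This scale was set separately in each tissue, so these values compare genes within a tissue and not levels between tissues. In liver (SD, n = 6), Rps2, a core protein of the small subunit, averaged 1075 ± 188 CPM per kb and Rplp1, an acidic protein of the stalk that recruits elongation factors, 1029 ± 275. Rpl41, the smallest ribosomal protein, averaged 829 ± 218, Rpl10, which joins the large subunit late in assembly, 762 ± 180, and Rps18 732 ± 234. The spread of each of these overlapped that of the next. In kidney (SD, n = 5), Rpl41 came first with 1513 ± 135, followed by Rps2 with 1139 ± 98.0, Rplp1 with 1097 ± 123, Rpl10 with 973 ± 67.0 and Rps15 with 855 ± 94.4. Only Rpl41 stood clear of the next gene by more than their SDs. Over the 65 core genes with 1 transcript, Rpl26 left aside, the median level was 322 CPM per kb in liver, from 24.1 to 1075, and 454 in kidney, from 40.7 to 1513.

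The remaining stalk genes were lower than Rplp1. Rplp0, the base of the stalk, averaged 373 ± 67.4 CPM per kb in liver and 679 ± 50.8 in kidney, and Rplp2 averaged 202 ± 52.6 and 298 ± 30.7. Rps6, the small-subunit protein phosphorylated by the kinases downstream of mTORC1, averaged 479 ± 105 in liver and 616 ± 49.5 in kidney. Rpsa, known also as the laminin receptor, averaged 345 ± 97.8 and 384 ± 50.1. The paralogs lay below the median of the core genes. Rps27l, a p53 target, averaged 266 ± 93.6 CPM per kb in liver and 300.1 ± 28.6 in kidney, Rpl22l1 71.8 ± 20.1 and 95.2 ± 7.53, and Rpl7l1 31.0 ± 4.19 and 46.1 ± 2.07. Rpl3l, the Rpl3 paralog of striated muscle, averaged only 0.07 ± 0.02 in liver and 0.72 ± 0.12 in kidney, and the testis paralogs were lower still, with Rpl39l at 0.05 and 0.01 and Rpl10l at 0. The lowest core genes above 0, all with several listed transcripts except Rpl26, were Rpl22 (0.72 in liver and 1.09 in kidney), Rpl26 (1.36 and 2.27), Rpl31 (1.42 and 2.40), Rps27a, whose product is made as a fusion with ubiquitin (3.31 and 3.48), and Rpl30 (4.44 and 7.20).

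**Figure D1:**
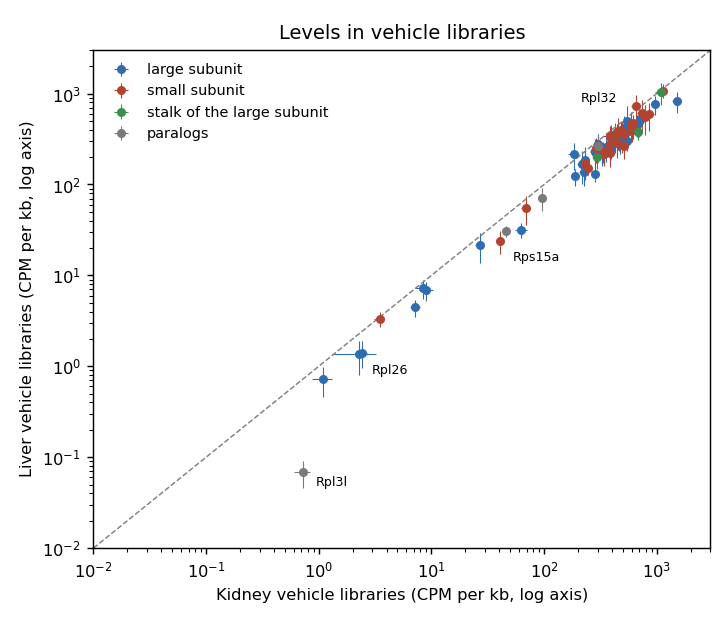
Mean level of each ribosomal protein gene in vehicle libraries, in CPM per kilobase on log axes, with liver (n = 6) on the vertical and kidney (n = 5) on the horizontal axis; bars are SDs and the dashed line marks equal values. The scale was set separately in each tissue, so the line does not compare levels between tissues. Most core genes lie above 100 CPM per kb in both tissues. Every core gene below 10 except Rpl26 is listed with several transcripts, and Rpl3l stands farthest below the line. Genes at 0 in a tissue and Rpl39l are not drawn.

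Ribosomal protein mRNA varied more between liver libraries than between kidney libraries, and it varied within groups. The summed level of the 83 genes ran from 14830 to 27605 CPM in liver, a ratio of 1.86, and from 23103 to 32052 CPM in kidney, a ratio of 1.39. The widest group was the liver TCE vehicle group. Its libraries had 27605, 14830 and 14882 CPM, and 77, 0 and 2 of the 78 tested members were above their mean over all liver libraries. The members thus moved together from library to library. The median member varied within groups by a coefficient of variation of 18.9% in liver and 8.66% in kidney, against 23.0% and 14.2% for the median of all tested genes.

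**Figure D2:**
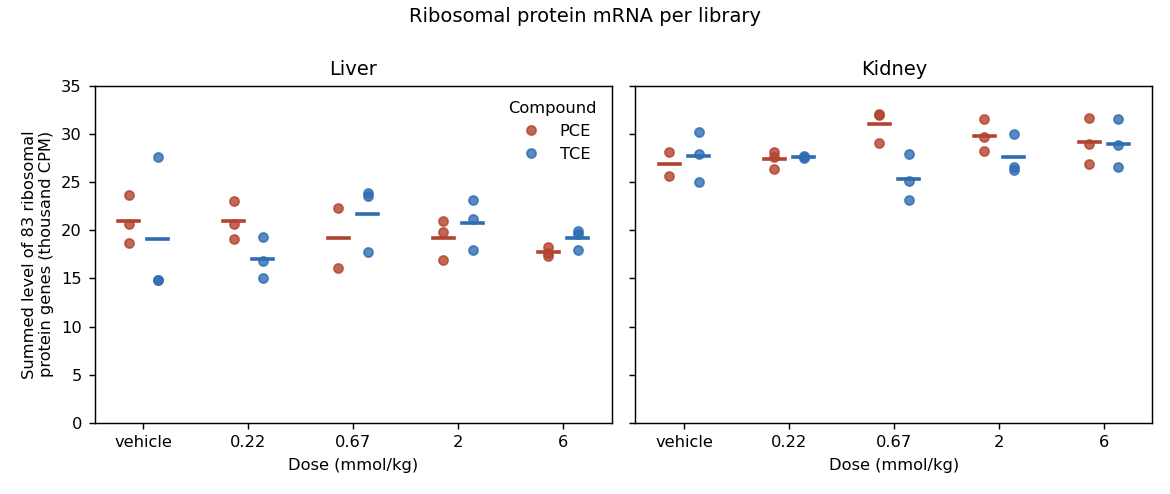
Summed level of the 83 ribosomal protein genes in units of 1000 CPM, for each library (points) and group mean (bars), by dose in mmol/kg with vehicle at the left. The TCE vehicle group of liver spans 14830 to 27605 CPM, wider than any difference between liver group means, and the kidney libraries stay between 23103 and 32052 CPM.

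This movement ran alongside a property of each library that the members did not enter. For every library, the deviation of each other gene from its mean log2 CPM was regressed on the log2 length of its transcript, and the slope shows whether long (positive) or short (negative) transcripts were over-represented. Ribosomal protein transcripts are short, with a median of 830 bases against 2783 for the other genes tested in liver. Slopes ran from -0.169 to 0.199 log2 CPM per doubling of length in liver and from -0.0943 to 0.0876 in kidney. The 7 liver libraries with the lowest slopes had 21179 to 27605 CPM of ribosomal protein mRNA, and the 7 with the highest had 14830 to 18239 CPM, without overlap. In kidney the 7 lowest had 27900 to 32052 CPM and the 7 highest 23103 to 28988 CPM, with overlap. The 3 libraries of the liver TCE vehicle group had slopes of -0.169, 0.143 and 0.137.

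Fitted within groups by edgeR's quasi-likelihood test, with a Benjamini-Hochberg adjusted p under 0.05 as the threshold here and below, 70 of 78 members fell as the slope rose in liver and none rose, where 28.5% of all tested genes fell. In kidney 67 of 79 members fell and none rose, where 9.05% of all genes fell. By its definition a rising slope goes with lower values of short transcripts, so falls in this short set were likely in advance. The shares of all genes include long transcripts, and no share among other short transcripts alone was computed. The median coefficient was -2.43 log2 CPM per unit of slope in liver and -2.38 in kidney, which over the observed range of slopes amounts to -0.89 and -0.43 on the log2 scale. Rps29, whose transcript has 390 bases, had a coefficient of -3.86 ± 0.24 in liver (SE, adjusted p = 5.1e-11) and -3.29 ± 0.39 in kidney (adjusted p = 1.2e-05). In liver, Rps20, Rps26 and Rpl37 had coefficients of -3.18, -3.12 and -3.47, and in kidney Rpl37a, Rps21 and Rps23 had -3.05, -3.48 and -2.57. The members not called in liver were Rpl22, Rpl3, Rpl4, Rpl5, Rpl7l1, Rpl9, Rplp0 and Rps4x, of which Rpl5 had the coefficient nearest to 0 (-0.05). The annotated transcripts of these 8 run from 738 bases (Rpl9) to 2606 (Rpl7l1), and Rps20, among the strongest falls, has one of 3706. The slope, GC content and other properties of a library move together, and their separate parts were not tested.

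**Figure D3:**
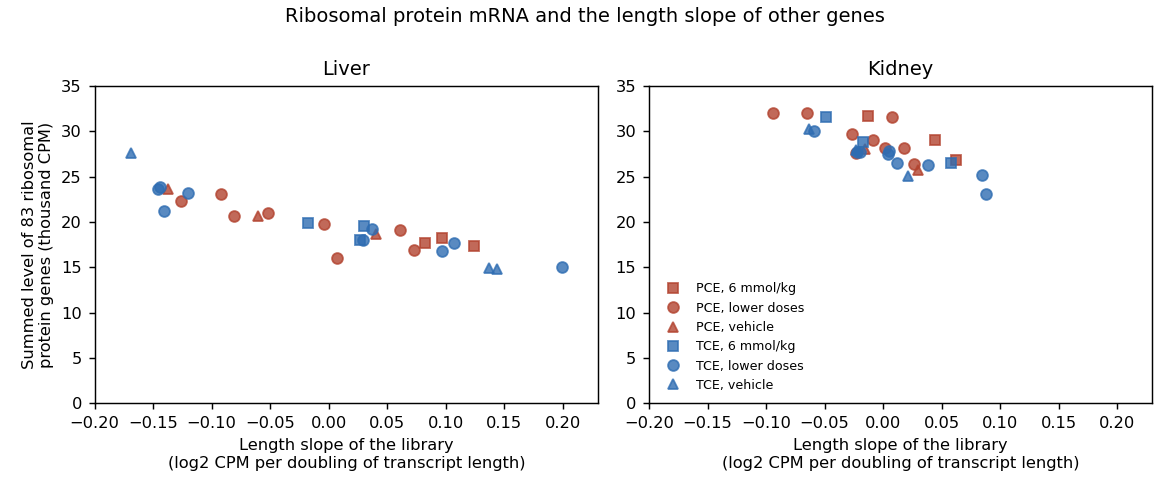
Summed level of the 83 ribosomal protein genes (in units of 1000 CPM) against the length slope of each library (log2 CPM per doubling of transcript length, computed without these genes); colours give the solvent and symbols the dose. In liver the library with the lowest slope has 27605 CPM and the 7 with the highest slopes have 14830 to 18239 CPM, the 3 libraries at 6 mmol/kg PCE lie at slopes of 0.0821 to 0.1239, and their vehicle libraries lie at -0.1371 to 0.0407.

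At 6 mmol/kg PCE in liver, most ribosomal protein genes had lower values than in vehicle libraries, but no member passed the test. Of 78 members, 67 had a fold change below 0, the median log2 fold change was -0.27, and the range was -0.79 to 0.32. edgeR called none, against 5.85% of all tested genes, 2.28% higher and 3.57% lower; 11 had an unadjusted p under 0.05, 10 of them lower, where 25.4% of all genes had one, and DESeq2 called 1, Rps2, where it called 11.3% of all genes. The libraries at 6 mmol/kg were all below the vehicle libraries for 31 members, where this held for 15.8% of all genes, and all above them for 2, where this held for 14.4%. Rps2 had 702, 730 and 767 CPM at 6 mmol/kg, against 1113, 1102 and 969 CPM in vehicle libraries. These groups did not overlap, and the log2 fold change was -0.53 ± 0.16 (SE, adjusted p = 0.050, just above the threshold). Rpl5 went against the majority, with 357, 319 and 314 CPM against 294, 216 and 283 CPM in vehicle libraries, a log2 fold change of 0.32 ± 0.15 (adjusted p = 0.19). With 1 library left out of the fit, edgeR called 3 members, all lower, without TCE vehicle replicate 1, where 9.56% of all genes were called, and 1 member, lower, where 5.66 to 8.85% were called, without TCE vehicle replicate 2 or 3, TCE 0.22 mmol/kg replicate 1, TCE 0.67 mmol/kg replicate 1 or 2, or TCE 2 mmol/kg replicate 2.

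The length slopes differed between the same groups. The summed level was 17759 ± 441 CPM at 6 mmol/kg PCE and 21005 ± 2513 CPM in vehicle libraries (SD, n = 3 each). The slopes were 0.0964, 0.1239 and 0.0821 at 6 mmol/kg and -0.0603, -0.1371 and 0.0407 in vehicle libraries, and a slope on GC content computed in the same way was -0.2415, -0.2106 and -0.3557 against 0.0577, 0.2464 and -0.0119. When gene-wise offsets for length and GC content were put in the fit, the median log2 fold change was 0.10 with 53 of 78 members above 0, and 1 member, Rps19, was called, higher. With both slopes as covariates the median was 0.14 and no member was called. The direction of the liver PCE values therefore depends on whether library length and GC slopes are taken into account. Neither slope overlapped between these groups, so dose and library slopes cannot be told apart here. The corrections may also take out changes due to the dose. Some summed marker levels did not overlap between these groups. Hepatocyte genes summed to 141608 to 169086 CPM at 6 mmol/kg PCE against 129794 to 140263 CPM in vehicle libraries. The 7 brown fat genes summed to 306 to 758 CPM against 1096 to 1526 CPM. The 7 bile duct genes summed to 10.1 to 11.6 CPM against 11.8 to 14.9 CPM, with none of the 5 tested called. Of the 12 hepatocyte genes none was called higher and 1 was called lower. The sums overlapped for 12 macrophage genes, at 199.7 to 360 CPM against 107 to 350 CPM, with 1 gene higher by the test. They also overlapped for 10 genes of fibroblasts and stellate cells, at 115 to 162 CPM against 68.2 to 118 CPM, with 1 higher. For 10 lymphocyte genes they did not overlap, at 3.26 to 5.39 CPM against 5.52 to 17.1 CPM, with 1 lower. Only 2 of the 7 brown fat genes had enough counts in liver to be tested, so their sum rests on few genes. Of these 2, 1 was lower by the test. In vehicle libraries 1 of the 7 was higher in liver than in kidney and 6 were lower. In each group 1 of the 7 brown fat genes was at 0, while no gene of the other lists named here was at 0. The part of these shifts in the result was not tested.

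Over the 5 dose levels of PCE in liver, edgeR's trend test gave 7 of 78 members that fell with dose. Of all genes, 6.73% fell and 5.07% rose, so the share of members that fell was near that of all genes. The trend is the log2 change per step from vehicle through 0.22, 0.67 and 2 to 6 mmol/kg, and its median over the members was -0.07. Another 28 members had an unadjusted p under 0.05 without passing, which makes 35 in all, where 29.3% of all genes had one. DESeq2 called 22, of which 21 were lower, where it called 18.2% of all genes and 10.7% lower. Rps2 fell by 0.13 per step ± 0.03 (SE, adjusted p = 0.014). Its values were 1113, 1102 and 969 CPM in vehicle libraries, 916, 964 and 1065 at 0.22 mmol/kg, 757 and 999 at 0.67, 941, 721 and 831 at 2, and 702, 730 and 767 at 6 mmol/kg. The libraries at 6 mmol/kg were below every vehicle and 0.22 mmol/kg library and overlapped those at 0.67 and 2 mmol/kg.

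The other called members were Rpl18, Rpl41 and Rpl36 of the large subunit, Rplp1 of the stalk, and Rpsa and Rps15 of the small subunit; Rps15 is needed for export of the small subunit from the nucleus. Their changes per step were -0.12 (adjusted p = 0.024) for Rpl18, -0.10 (0.027) for Rpl41, -0.18 (0.045) for Rpl36, -0.12 (0.035) for Rplp1, -0.12 (0.042) for Rpsa and -0.15 (0.044) for Rps15, all by edgeR. Rpl36 had 157, 137 and 135 CPM at 6 mmol/kg, against 210, 329 and 170 in vehicle libraries. Rplp1 had 352, 383 and 390 CPM at 6 mmol/kg, against 527, 636 and 495 in vehicle libraries. In both genes the vehicle library with the lowest slope, replicate 2, was the highest.

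The number of members called in this trend changed with the libraries and the correction used. With length and GC offsets 1 member was called, Rps19, which rose by 0.15 per step, and with slope covariates none. Offsets also turned the change per step of Rpl18, Rpl41 and Rplp1 to 0.028, 0.046 and 0.029. Without vehicle replicate 2, 6 mmol/kg replicate 1 or 6 mmol/kg replicate 3, 1 member was called, where 3.98%, 3.32% and 3.33% of all genes were called, and without vehicle replicate 3 the count was 23, of which 22 were lower, where 20.0% of all genes were called. The count was 3 without 2 mmol/kg replicate 3, and 4 without 0.22 mmol/kg replicate 2 or 3, 2 mmol/kg replicate 2 or 6 mmol/kg replicate 2, where 7.73 to 8.83% of all genes were called. Rps2 kept its call when any 1 library was left out, with changes of -0.15 to -0.12 per step and adjusted p from 0.011 to 0.047. With the offsets its change was -0.02 (adjusted p = 0.66). Liver depth was lower at the 3 doses between vehicle and 6 mmol/kg, as given above.

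At 6 mmol/kg TCE in liver, ribosomal protein genes were centred on no change. The median log2 fold change was 0.02, from -0.49 to 0.66, and edgeR called none of 78, against 1.31% of all genes, 0.767% being lower. The 1 member with an unadjusted p under 0.05 was Rpl22, also the 1 called by DESeq2; it had 1.53, 1.505 and 1.83 CPM at 6 mmol/kg, against 1.31, 0.89 and 0.87 CPM in vehicle libraries. Rpl22 is listed with few counts, and its adjusted p was 0.15 in edgeR. The summed level was 19152 ± 1012 CPM at 6 mmol/kg and 19106 ± 7361 CPM in vehicle libraries (SD, n = 3 each), so the vehicle libraries varied far more than the dosed ones. Half-widths of the 95% intervals had a median of 0.42 on the log2 scale. Libraries at 6 mmol/kg were all above the vehicle libraries for 1 member, where this held for 8.07% of all genes, and all below for 0, where this held for 10.2%. The TCE trend gave 0 called of 78 by edgeR (0.851% of all genes), with 1 member called by DESeq2 and 1 below an unadjusted p of 0.05, and edgeR called 1 without vehicle replicate 1. When the 7 liver libraries with slopes under -0.1 were left out, among them vehicle replicate 1, 41 members were called in the TCE trend, all higher, against 15.5% of all genes, and 2 at 6 mmol/kg.

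In kidney, most members had higher values at 6 mmol/kg PCE than in vehicle libraries. Of 79 members, 66 had a log2 fold change above 0, with a median of 0.13. The 1 member that passed the test was Rpl5, which was higher, against 1.6% of all tested genes that were higher and 4.09% called in either direction. By edgeR the share of members called higher was thus near that of all genes. There were 12 members with an unadjusted p under 0.05, of which 10 were higher, where 16.7% of all genes had one. DESeq2 called 3, Rpl3, Rpl4 and Rpl5, all higher, where it called 2.72% of all genes higher. Rpl5 had 773, 654 and 602 CPM at 6 mmol/kg PCE, against 571 and 520 CPM in vehicle libraries. All dosed libraries were above both vehicle libraries, and the log2 fold change was 0.31 ± 0.08 (SE, adjusted p = 0.037). Across the doses, Rpl5 had 560, 543 and 578 CPM at 0.22 mmol/kg, 592, 553 and 618 at 0.67 and 628, 664 and 623 at 2. It rose by 0.09 per step ± 0.02 (adjusted p = 0.024), the 1 member called in the trend, against 1.94% of all genes called higher; 31 members had an unadjusted p under 0.05, of which 29 were higher, where 17.9% of all genes had one, and DESeq2 called 10, all higher, where it called 3.42% of all genes higher.

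The Rpl5 call depended on single libraries of small groups. Its log2 fold change at 6 mmol/kg was 0.39 without vehicle replicate 1 (adjusted p = 0.11), 0.26 without vehicle replicate 2 (0.37) and 0.22 without 6 mmol/kg replicate 1 (0.22), where edgeR's shared spread was assumed for the lone vehicle library. Its trend was 0.08 per step without vehicle replicate 2 (adjusted p = 0.065) and 0.06 without 6 mmol/kg replicate 1 (0.074). Without 6 mmol/kg replicate 1, no member was called at that dose, where 1.53% of all genes were called, against 4.09% in the full fit. The count was 3 without 6 mmol/kg replicate 2 (5.93% of all genes) and 4 without replicate 3 of that group (3.84%). It was 2 without TCE 2 mmol/kg replicate 3 (4.3%) and 2 without TCE 6 mmol/kg replicate 2 (4.09%). In the trend the count was 2 without 0.67 mmol/kg replicate 3 (3.06%) and 3 without 6 mmol/kg replicate 3 (1.43%).

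**Figure D4:**
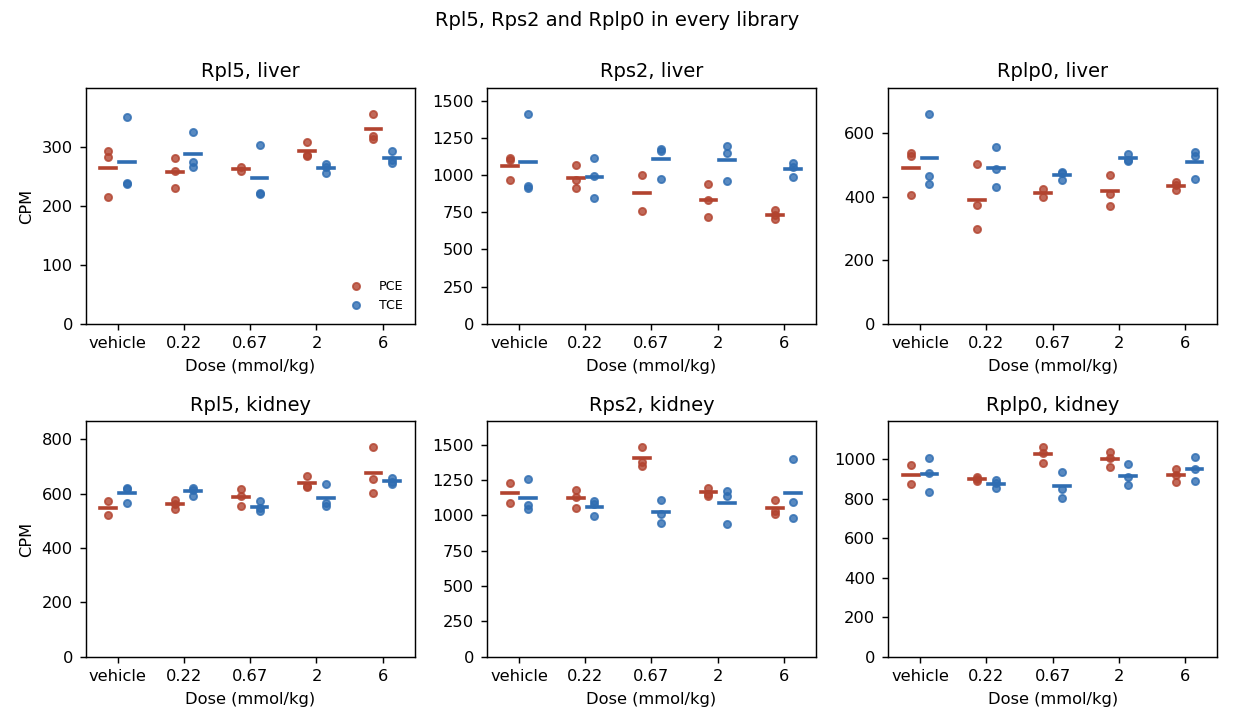
Level in CPM of Rpl5, Rps2 and Rplp0 in every library (points) with group means (bars), by dose in mmol/kg with vehicle at the left, liver above and kidney below. In kidney Rpl5 reaches 602 to 773 CPM at 6 mmol/kg PCE against 520 and 571 CPM in vehicle, Rps2 in liver reaches 702 to 767 CPM at 6 mmol/kg PCE against 969 to 1113 CPM, and Rplp0 shows neither pattern.

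Taking the library slopes into account moved the kidney PCE result toward more calls. The slopes at 6 mmol/kg PCE were -0.0127, 0.0441 and 0.0618, against -0.0151 and 0.0299 in vehicle libraries. The summed level was 29161 ± 2396 CPM at 6 mmol/kg (SD, n = 3) and 26890 ± 1705 CPM in vehicle libraries (SD, n = 2). With length and GC offsets, 23 of 79 members were called at 6 mmol/kg, all higher, against 5.16% of all genes, and the median log2 fold change was 0.19. With slope covariates, 24 were called, all higher, against 6.28% of all genes, with a median of 0.18. The same 20 genes were called in both fits, 3 of which DESeq2 also called without offsets or covariates. Neither fit was repeated with single libraries left out, and the vehicle group had 2 libraries. The libraries at 6 mmol/kg were all above the vehicle libraries for 13 members, where this held for 15.4% of all genes, and all below for 3, where this held for 16.7%. The share of members all above was near that of all genes.

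The 5 of those 20 with the smallest adjusted p under the offsets were Rps28, Rpl3, Rps3a1, Rps9 and Rpl24. Rps28 had 246, 214 and 198 CPM at 6 mmol/kg, against 207 and 178 in vehicle libraries. Its groups overlapped, and its log2 fold change was 0.19 without offsets (adjusted p = 0.43) and 0.28 ± 0.06 with them (SE, adjusted p = 0.0047). Rpl3, which lines the peptidyl transferase centre, had 818, 602 and 590 CPM against 565 and 526, all dosed libraries being higher, with log2 fold changes of 0.30 (adjusted p = 0.11) and 0.32 ± 0.07 (0.0074). Rps3a1, Rps9 and Rpl24 had log2 fold changes of 0.29, 0.27 and 0.30 with the offsets. In all 5 genes the highest dosed library was replicate 1. In the trend, offsets gave 34 members called higher (5.08% of all genes called) and covariates 32 (4.86%), with 29 shared.

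**Figure D5:**
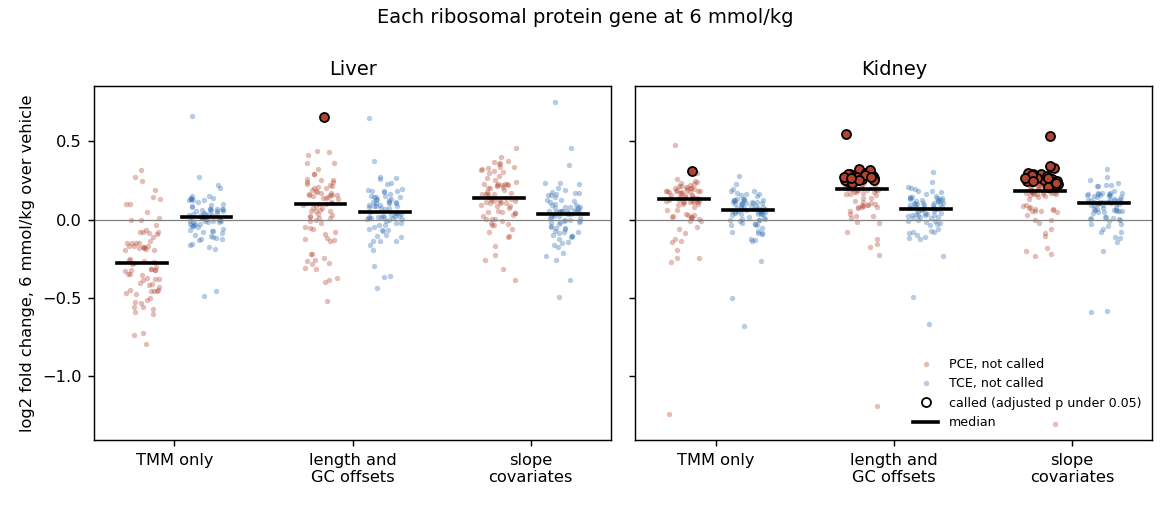
Log2 fold change of each tested ribosomal protein gene at 6 mmol/kg over vehicle for PCE and TCE, under TMM normalization alone, with length and GC offsets, and with slope covariates; bars are medians and outlined points have an adjusted p under 0.05. The liver PCE median is -0.27, 0.10 and 0.14 in the 3 fits, and the kidney PCE median is 0.13, 0.19 and 0.18 with 1, 23 and 24 genes called higher.

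The kidney PCE values differed by role, a difference that was not tested. The stalk genes had a median log2 fold change of -0.04 and the paralogs -0.12, against 0.13 in the large and 0.15 in the small subunit, and none was called. Rpl22l1 had 88.4, 61.5 and 55.4 CPM at 6 mmol/kg, against 47.2 and 51.2 in vehicle libraries, a log2 fold change of 0.48 ± 0.16 (adjusted p = 0.11). Rpl3l had 0.279, 0.279 and 0.371 CPM against 0.848 and 0.638, a log2 fold change of -1.24 ± 0.40 (adjusted p = 0.078), on few counts. Rpl7l1 had a log2 fold change of -0.24 ± 0.08 (adjusted p = 0.090). The proximal tubule markers summed to 59912 to 60610 CPM at 6 mmol/kg PCE and 79408 to 81677 CPM in vehicle libraries, with 2 of 12 lower by the test and none at 0. The 7 brown fat genes summed to 16.0 to 225 CPM against 20.6 to 39.7 CPM, with none at 0. The part of these shifts in the result was not tested.

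At 6 mmol/kg TCE in kidney, edgeR and DESeq2 called none of 79 members, against 0.183% of all genes by edgeR, and 5 had an unadjusted p under 0.05. The median log2 fold change was 0.06, and the median half-width of the 95% intervals was 0.19. Rpl5 had 636, 656 and 641 CPM, against 621, 618 and 564 CPM in vehicle libraries. The summed level was 28979 ± 2505 CPM at 6 mmol/kg and 27724 ± 2590 CPM in vehicle libraries (SD, n = 3 each). Dosed libraries were all above the vehicle libraries for 6 members, where this held for 8% of all genes, and all below for 1, where this held for 8.08%. The TCE trend gave 0 called by edgeR (0.0% of all genes) and by DESeq2, with 3 members at an unadjusted p under 0.05.

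At the lower doses no member was called in either tissue by edgeR or DESeq2. In liver, edgeR's calls over all genes were 0.00759%, 0.00759% and 0.182% for PCE at 0.22, 0.67 and 2 mmol/kg (0.0607% lower at 2 mmol/kg) and 0.0%, 0.00759% and 0.00759% for TCE. In kidney they were 0.0%, 0.0% and 0.0141% for PCE and 0.0%, 0.00703% and 0.0% for TCE. At an unadjusted p under 0.05, PCE in liver had 0, 0 and 4 members, where 4.40%, 7.57% and 11.6% of all genes had one. For TCE in liver there were 1, 1 and 1, where all genes gave 5.87%, 8.00% and 9.60%. The members were thus at or below the share of all genes in liver. For PCE in kidney there were 0, 23 and 7 of 79, all higher, where all genes gave 6.22%, 8.30% and 6.25%. For TCE in kidney there were 2, 8 and 1, all lower, where all genes gave 5.13%, 12.4% and 4.23%. At 0.67 mmol/kg in kidney the fold changes lay on opposite sides of 0: 76 of 79 members were above 0 for PCE, with a median of 0.21, and all 79 were below 0 for TCE, with a median of -0.13. The summed levels were 31038 ± 1701 CPM for PCE (n = 3) against 26890 ± 1705 CPM in its vehicle group (n = 2), and 25371 ± 2398 CPM for TCE against 27724 ± 2590 CPM in its vehicle group (SD, n = 3 each), the TCE groups overlapping. Their mean length slopes were -0.0560 for PCE and 0.0588 for TCE, against 0.0074 and -0.0217 in the vehicle groups, so the lower slope went with the higher level in both cases.

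The responses to both solvents were compared directly at the shared dose of 6 mmol/kg, in 1 pair for each of 2 tissues with p-values adjusted over all genes. Of the difference between the PCE and the TCE response, edgeR and DESeq2 called no member in liver, where edgeR called 0.0% of all genes and 2 members had an unadjusted p under 0.05, and none in kidney, where edgeR called 0.0211% of all genes and 1 member had an unadjusted p under 0.05. The median difference was -0.27 in liver and 0.05 in kidney on the log2 scale, and the median half-width of the 95% intervals was 0.59 and 0.29. Rps2 in liver differed by -0.47 (interval -0.92 to -0.03, adjusted p = 0.56), with 702 to 767 CPM under PCE and 990 to 1081 CPM under TCE. Rpl5 in kidney differed by 0.21 (interval -0.01 to 0.43, adjusted p = 0.71), with 602 to 773 CPM under PCE and 636 to 656 CPM under TCE. Libraries of the solvents compared directly at this dose gave no edgeR call in liver (0.509% of all genes and 0.0759% higher; 3 members at an unadjusted p under 0.05, and 1 in DESeq2) or in kidney (0.851%; 7 and 1). The vehicle groups of PCE and TCE gave no call between them in either tissue by edgeR (0.0% of all genes); 1 member in each had an unadjusted p under 0.05, and DESeq2 called Rpl22 in liver.

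The liver and kidney responses were also compared in a fit of both tissues. For PCE, the difference was below 0 for 76 of 79 members with a median of -0.38, but edgeR called none (0.709% of all genes), 7 had an unadjusted p under 0.05, and DESeq2 called none. Rps2 differed by -0.41 (interval -0.86 to 0.03). The median was -0.16 with length and GC offsets and -0.003 with slope covariates. For TCE the median was -0.08, and no member was called (0.328% of all genes), had an unadjusted p under 0.05 or was called by DESeq2.

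Vehicle libraries of liver and kidney differed for most members. In the joint fit, 71 of 79 members were higher in liver and 1 was lower, where 35.8% of all genes were higher and 37.1% lower. The median log2 fold change of liver over kidney was 0.63. By role, 37 of 43 large-subunit, 28 of 29 small-subunit, all 3 stalk genes and 3 of 4 paralogs were higher. On the joint scale, Rps2 had 1586 ± 327 CPM in liver (SD, n = 6) and 782 ± 68.8 CPM in kidney (SD, n = 5), a log2 fold change of 1.02 ± 0.12 (adjusted p = 1.8e-10). Rpl12 had 250 to 573 CPM in liver and 135 to 180 CPM in kidney, a log2 fold change of 1.35, and Rps18 had 390 to 870 and 217 to 282 CPM, a log2 fold change of 1.27. Rps27a and Rpl4, which with these 3 had the smallest p, had log2 fold changes of 1.03 and 0.71. Rps27a, with 2 listed transcripts, had only 2.94 to 5.18 CPM in liver and 1.72 to 2.14 CPM in kidney, so its level is uncertain. None of these 5 genes overlapped between the tissues, which was likely in advance since they were picked by p in this contrast. The share of all genes without such overlap was not computed. Rpl5 did not differ detectably, with 398 ± 79.9 CPM in liver and 398 ± 29.8 CPM in kidney. The 1 gene lower in liver was Rpl3l, with 0.0643 to 0.168 CPM in liver and 0.424 to 0.609 CPM in kidney, a log2 fold change of -2.28 ± 0.36 (adjusted p = 3.9e-07). It has few counts and 2 listed transcripts, so its level is uncertain. Over all libraries, 1 transcript had 105 counts in liver and 68 in kidney, and the other had 8 and 412.

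The direction of that tissue difference changed with the scaling. The members made up a smaller share of the counts in liver than in kidney, as given above. Without scaling factors, the members' median log2 fold change was -0.47, with 60 members lower in liver and none higher, where 72.4% of all genes were lower and 13.1% higher, while the median of all genes was -1.06, against 0.01 with TMM. Rps2, Rpl4 and Rps27a were then at -0.080, -0.39 and -0.066. Relative to the median gene the members were higher in liver under both scalings. A scaling factor shifts every gene of a library alike, so this agreement was fixed in advance and adds no support. Without the 2 liver vehicle libraries of length slopes under -0.1, 55 members were higher and 1 lower, where 34.4% of all genes were higher and 37.8% lower, and the median was 0.34.

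Genes that work with the ribosome were counted from lists of the pathway. Among 31 translation factors whose mRNAs carry TOP tracts or which act in initiation and elongation, 5 rose and none fell at 6 mmol/kg PCE in kidney, with a median log2 fold change of 0.13. Pabpc1, the poly(A)-binding protein, rose by 0.63 ± 0.09 (adjusted p = 2.6e-04) and Eif4b, a cofactor of the initiation helicase, by 0.70 ± 0.14 (adjusted p = 0.0057). In liver at the same dose, 2 rose and none fell, Pabpc1 by 0.47 and Eif3e, an initiation factor subunit, by 0.41, with a median of -0.01. Over the PCE dose trend 6 rose and none fell in kidney, and 4 rose and 3 fell in liver. Of 40 tested ribosome biogenesis genes, 2 rose and 1 fell at 6 mmol/kg PCE in kidney, where the nucleolar protein Ncl rose by 0.38, Mybbp1a rose by 0.24 and the snoRNP protein Nhp2 fell by 0.48. In liver at that dose 1 rose and 1 fell, Ncl rising by 0.54 and Rrp9 falling by 0.62, and over the dose trend in liver 1 rose and 5 fell. The shares of all genes called at 6 mmol/kg PCE were 4.09% in kidney and 5.85% in liver, as given above. Over the PCE dose trend they were 3.37% in kidney and 11.8% in liver.

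Of the mTORC1 list, 17 genes were tested in liver and 16 in kidney. At 6 mmol/kg PCE in kidney 2 rose and 1 fell: Eif4ebp1, the translation repressor that mTORC1 phosphorylates, rose by 1.89 ± 0.22 (adjusted p = 4.9e-05), Sesn2, a leucine sensor that restrains mTORC1, rose by 0.72, and Mtor itself fell by 0.40. In liver at 6 mmol/kg PCE the 1 gene of this list that was called was Sesn2, rising by 1.02, while over the PCE dose trend in liver 3 rose and 1 fell. At 6 mmol/kg PCE 4.09% of all genes were called in kidney and 5.85% in liver, and 11.8% in the liver trend. Mitochondrial ribosomal proteins, which serve a separate ribosome, are also encoded by short transcripts, with a median of 1223 bases. Of 77 tested at 6 mmol/kg PCE, none rose and 3 fell in liver, with a median of -0.30, and none rose and 4 fell in kidney, with a median of -0.10; Mrpl16 fell by 0.40 and Mrpl44 by 0.33 in kidney, and Mrpl38 by 0.67 and Mrpl4 by 0.76 in liver. Of all genes, 3.57% fell at that dose in liver and 2.49% in kidney. Over the PCE dose trend 17 of the 77 fell in liver, against 6.73% of all genes, and 2 in kidney, against 1.43%, and none rose. With rising length slope, 60 of the 77 fell in liver, against 28.5% of all genes, and 46 in kidney, against 9.05%.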

How the data were processed

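RNA-seq libraries were made with TruSeq Total RNA kits and read on a HiSeq-2000, per the labels' protocols. Per the submitters' processing notes, the build was mm10 and the tools were HTSeq, TopHat2 2.0.10 and CASAVA 1.8.2, with no roles or settings (not given in the sources used here: annotation version, strand setting). The authors deposited 1 table per tissue, with unnormalized read counts for each RefSeq transcript. Columns with a decimal dose in a line above the values were read under the unit of expected counts, as deposited; every value was whole, so rounding changed none. Ambiguous reads (19.7 to 22.5% of a library) and reads in no feature (14.3 to 27.5%) stayed out of totals and tests.

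From 33392 transcripts, counts were summed to 24123 genes. The 83 members came from 101 rows; 4 further rows of related symbols were kept apart. Tests used edgeR 4.0.16 in R 4.3.3 (TMM, filterByExpr, quasi-likelihood F test, two-sided), with all 10 groups of a tissue in 1 fit (13173 genes in liver, 14215 in kidney), the libraries of 1 solvent for trends over dose ranks 0 to 4, and both tissues for tissue contrasts (14948 genes). P-values were adjusted over all genes tested, and intervals are 1.96 SE. DESeq2 1.42.0, other scalings, offsets by lowess on length and GC content, slope covariates and leaving out each library were alternatives, and the scripts were tested on simulated data. No replicate pair agreed within sampling noise. Lengths come from the annotation, so levels per kilobase of long annotated transcripts are uncertain, and CPM is on the TMM scale of each tissue unless called joint.

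Named members are the 5 called with the smallest p per direction and comparison, the 5 highest and lowest levels, the stalk genes, Rpsa, Rps6 and the paralogs, and of each pathway list the 2 called with the smallest p per direction at 6 mmol/kg; Rps15, Rpl36, Rpl22, Rpl3, Rps3a1, Rps28, Rps9, Rpl24, Rps19 and Rpl11 were named after their values were seen. Some members that this rule names are not reported here. The members and lists were chosen with earlier results of these data known.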

Additional observations from a re-analysis of the deposited data

How the results depend on the processing

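The length-slope falls (64 to 71 members in liver and 61 to 68 in kidney with 1 library left out; 69 and 63 with a replicate block) and the 0 calls at lower doses held in every alternative run for them, as did 0 calls for TCE in kidney. Other counts moved. At 6 mmol/kg TCE in liver, DESeq2 called 1 instead of 0, and the TCE trend gave 1 without scaling and 1 by DESeq2 instead of 0, and 0 to 1 with 1 library left out. At 6 mmol/kg PCE in liver, no scaling, TMM computed without the members, DESeq2 and the transcript with most counts gave 1 lower instead of 0, offsets gave 1 higher, pooled vehicle groups gave 2 lower, and leaving out 1 library gave 0 to 3. The liver PCE trend of 7 became 4 with upper-quartile scaling, 22 with DESeq2, 1 higher with offsets, 0 with slope covariates and 1 to 23 with 1 library left out. Its offsets turned Rpl18 (0.028), Rpl41 (0.046) and Rplp1 (0.029) to above 0. The 1 call at 6 mmol/kg PCE in kidney became 5 without scaling, 3 with DESeq2, 23 with offsets, 24 with covariates, 0 when only its own groups were fitted, 4 with pooled vehicle groups (3 higher, 1 lower) and 0 to 4 with 1 library left out. The 1 call of the kidney PCE trend became 7, 10, 34 and 32 under the first 4 of these and 0 to 3 with 1 library left out. DESeq2 called 1 between the liver vehicle groups. Unscaled, the tissue comparison reversed, with 60 members lower in liver, Rps2 at -0.080, Rpl4 at -0.39 and Rps27a at -0.066; its range with 1 library left out was 64 to 76. Leaving out the 7 liver libraries with slopes under -0.1, a setting chosen after seeing the data, gave 41 in the TCE trend, 2 at 6 mmol/kg TCE, 1 in the PCE trend and 3 lower in the PCE minus TCE difference. A replicate block gave 4 instead of 7 in the liver PCE trend and moved no other count by over 1.5 times. Within a tissue, same-numbered libraries of different groups did not deviate together (mean r of -0.037 in liver and 0.007 in kidney). Whether liver and kidney libraries came from the same mice was not tested, and the main joint fit treated them as separate. The joint fit was repeated only without each of its 23 vehicle and 6 mmol/kg libraries. The cause was not tested for any of these. Among single named members, 607 of the leave-one-out values kept their call and direction and 24 lost the call. With 2 or 3 libraries a group, the median SE of a member was 0.21 log2 in liver and 0.11 in kidney at 6 mmol/kg PCE. Since p-values were adjusted over all genes, shifts well above 2 SE could also go uncalled, as that of Rps2 did in liver at this dose.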
